A study of Homo sapiens with 18 samples.

Results

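DAOY is a human medulloblastoma cell line and U87 mg (U87mg in the labels) is a human glioblastoma cell line. Both were grown as spheroidal aggregates in channels filled with a mixture of medium and growth factor reduced Matrigel, a basement membrane extract. The aggregates were held under a direct current electric field (dcEF) of 250 V/m for 0 h, 2 h or 8 h before RNA was taken for sequencing. The genes described here are those that moved the same way in both lines between 0 h and 8 h, in 12 of the 18 samples of the series. These are 3 DAOY samples at 0 h, 3 DAOY samples at 8 h, 3 U87 mg samples at 0 h and 3 U87 mg samples at 8 h, and each sample pooled 3 channels. The 6 samples at 2 h served only to show levels. No sample was kept in the channels for 8 h without a field, so the field and the time spent in the channel cannot be told apart. Each line is 1 established culture, and in bulk RNA fewer cells of a kind and less RNA per cell cannot be told apart.

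Electrotaxis is the directed migration of cells along an electric field. In the first hours of a new condition cells commonly change immediate early genes, which need no new protein for their induction, and chaperone genes, which heat shock factors switch on when proteins misfold. Genes for splicing regulators often hold back part of their own transcripts with an intron still in place or with a stop codon that leads to decay, and the balance between these forms and the coding form moves with the state of the cell. These are general properties of such genes and are given here as background to the results.

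The total of estimated counts lay between 9194470 and 15610886 per sample over the 12 samples. Within groups, the Spearman correlation between samples over the genes tested lay between 0.962 and 0.992. DAOY at 0 h replicate 0 stood apart from the other DAOY samples on the second axis of a multidimensional scaling of the counts, at 2.08, where the other 5 lay between -0.94 and 0.23. The intermediate filament gene VIM was abundant in both lines, at 1882 to 2970 TPM (transcript abundance per length, scaled to a common total) in DAOY and 3997 to 5341 TPM in U87 mg. The progenitor genes SOX2 and NES were split between the lines, with SOX2 at 3.29 to 6.92 TPM in DAOY and at most 0.0858 TPM in U87 mg, and NES at most 0.588 TPM in DAOY and 5.58 to 8.54 TPM in U87 mg. GLI1 had at most 0.561 TPM in DAOY and 1.51 to 7.2 TPM in U87 mg. Over both lines GFAP reached at most 3.11 TPM, OLIG2 1.40 TPM and S100B 0.398 TPM. Of the 13 markers of blood, endothelial, epithelial and neuronal cells, PECAM1 in DAOY and the neuronal genes SYT1 and SNAP25 in both lines were well above 0 in every sample. The blood markers CD3E and PTPRC and the endothelial markers CDH5 and VWF stayed at or below 0.719 TPM. In DAOY the blood marker CD14 had 0.409 to 1.30 TPM and HBA1 up to 1.38 TPM, and the epithelial marker KRT5 had 0.568 to 1.45 TPM. The epithelial marker EPCAM reached 1.80 TPM in DAOY and 2.44 TPM in U87 mg. The 13 markers summed to between 21.7 and 33.4 TPM at 0 h and 34.6 and 44.6 TPM at 8 h in DAOY, and to between 27.97 and 41.7 TPM at 0 h and 22.7 and 38.6 TPM at 8 h in U87 mg. In DAOY, where SNAP25, SYT1 and PECAM1 make up most of the sum, these ranges did not overlap. The part of these markers in the results was not tested.

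With the cell line as a block, 107 genes were at least 2-fold higher and 207 at least 2-fold lower at 8 h with the same sign in both lines, at a false discovery rate (FDR) below 0.05 in the quasi-likelihood test of edgeR, adjusted by Benjamini-Hochberg. That is 0.66% and 1.28% of the 16214 genes tested. Without the 2-fold limit, 580 genes (3.58%) were higher and 614 (3.79%) were lower. In 443 genes (2.73%) all 8 h samples of a line lay above all its 0 h samples in both lines, and in 676 genes (4.17%) all lay below. Of the genes past both thresholds, 55 of the 107 higher ones and 154 of the 207 lower ones were separated in this way. Another set of scaling factors (RLE) gave 108 higher and 214 lower. Removing a trend over GC content and transcript length gave 179 and 227, and limma on log2(TPM + 0.1), which changes the measure and the test together, gave 54 and 173.

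The estimates were further from 0 in DAOY than in U87 mg for 78 of the 107 and 149 of the 207 genes. The median log2 fold change of the 107 higher genes was 1.55 in DAOY and 1.13 in U87 mg, and that of the 207 lower genes was -1.41 in DAOY and -1.11 in U87 mg. On its own, DAOY passed the FDR threshold for 72 of the 107 and 141 of the 207 genes, whereas U87 mg passed it for 1 and 2 genes. The number of all tested genes past the FDR threshold in each line alone depended on the fit: it was 1 higher and 2 lower here, 54 and 77 with DESeq2, 165 and 89 with the GC and length trend removed, 37 and 52 with all 18 samples and 67 and 61 with no filter. At an unadjusted p under 0.05 in U87 mg there were 72 of 107 and 169 of 207. A test of the difference between the lines, the interaction term, called 1 gene (0.00617%), BDNF, and had 1178 genes at an unadjusted p under 0.05, and DESeq2 called 27 genes. Another 12 genes passed FDR and 2-fold in the additive fit while their sign differed between the lines, and are not counted here.

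**Figure D1:**
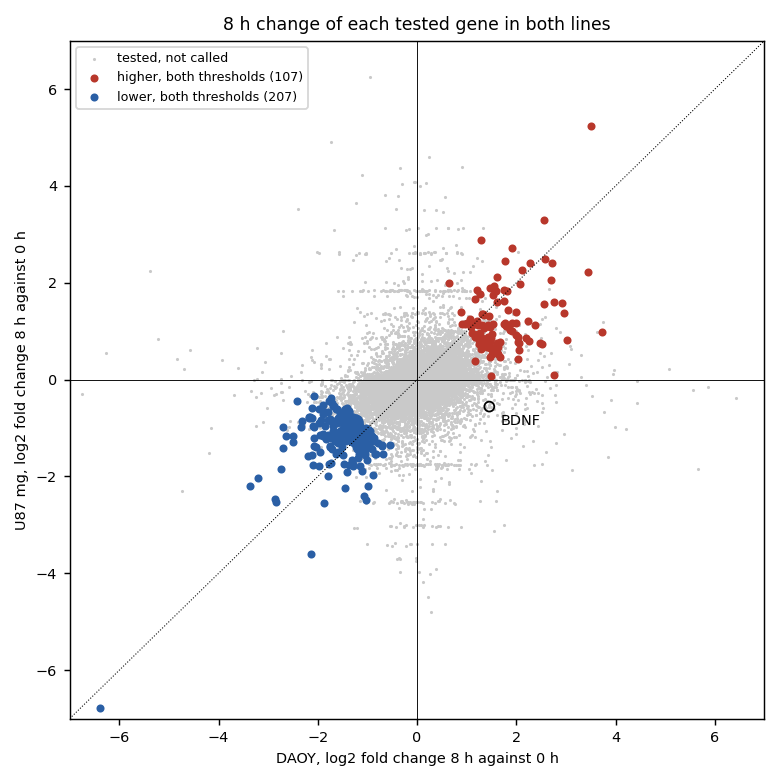
Log2 fold change at 8 h against 0 h of each tested gene in DAOY (horizontal axis) and in U87 mg (vertical axis), with the 107 genes called higher in red and the 207 called lower in blue, and equal change as a dotted line. The called genes lie at the lower left and upper right, most of them further out along the DAOY axis, and BDNF (circle) lies at 1.46 in DAOY and -0.56 in U87 mg; 5 genes fall outside the axes.

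Single samples carried part of these counts. Without DAOY at 8 h replicate 1 the counts were 39 higher and 129 lower, and without DAOY at 8 h replicate 2 they were 68 and 133. Without DAOY at 0 h replicate 1 there were 64 higher genes, and without U87 mg at 8 h replicate 2 there were 68. Without DAOY at 0 h replicate 0, the sample that stood apart, there were 98 and 188. By FDR alone, these counts were 678 and 552 without that sample. They were 188 and 281 without DAOY at 8 h replicate 1, 296 and 291 without replicate 2, and 478 and 409 without replicate 0. Leaving out DAOY at 0 h replicate 1 gave 307 and 393, and replicate 2 gave 332 and 538. In U87 mg, leaving out 0 h replicate 1 gave 374 and 643, 0 h replicate 2 gave 314 and 525, and 8 h replicate 2 gave 298 and 349. Leaving out U87 mg at 0 h replicate 0 gave 564 and 527, 8 h replicate 0 gave 483 and 467, and 8 h replicate 1 gave 528 and 579. By FDR alone limma gave 217 and 500 on log2(TPM + 1), and 195 and 448 on log2(TPM + 0.1). Counts of list members in such fits, given below, are to be read beside these totals.

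Among called genes with a mean of at least 5 CPM whose 0 h and 8 h samples did not overlap in either line, the 15 largest rises ranged from 1.15 to 2.78 on the log2 scale. The lack of overlap was a condition of their choice and is no result. They belong to no single pathway and include a transcription factor, vesicle and lipid genes, secreted proteins and RNA binding proteins. Levels are given as CPM, counts scaled to a common library total after TMM scaling. The median level was 3.32 CPM for the 107 higher and 4.26 CPM for the 207 lower genes, against 16.3 CPM over all genes tested. Protein-coding genes made up 59.8% and 70.5% of them, against 78.9% of all tested. Only 29 higher and 70 lower genes met the conditions for naming, so the genes described are not typical of all those called. ZNF143, a zinc finger transcription factor that binds promoters, had 25.02, 18.5 and 22.5 CPM at 0 h and 63.9, 75.4 and 81.2 CPM at 8 h in DAOY, and 35.5, 30.5 and 24.9 CPM at 0 h and 63.04, 62.9 and 71.2 CPM at 8 h in U87 mg. The samples of a group lay close together, and the log2 fold change was 1.45 (SE 0.14, edgeR adjusted p = 0.000776). STX3, a syntaxin of vesicle fusion, had 44.5, 36.3 and 39.3 CPM at 0 h and 89.1, 93.96 and 94.2 CPM at 8 h in DAOY, and 67.3, 47.6 and 35.7 CPM at 0 h and 105, 98.1 and 117 CPM at 8 h in U87 mg. The change was 1.18 (SE 0.13, edgeR adjusted p = 0.000872), and the estimates of the lines, 1.23 in DAOY and 1.13 in U87 mg, lay close to each other. KIAA0907 (KHDC4), an RNA binding protein tied to splicing, had 58.5, 47.6 and 54.5 CPM at 0 h and 161, 230.0 and 192 CPM at 8 h in DAOY, and 80.2, 69.3 and 50.99 CPM at 0 h and 124, 128 and 147 CPM at 8 h in U87 mg. It changed by 1.45 (SE 0.17, edgeR adjusted p = 0.00103), with 1.88 in DAOY and 1.03 in U87 mg.

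MALT1, the paracaspase of nuclear factor kappa B signalling, had 83.7, 57.2 and 60.4 CPM at 0 h and 171, 224 and 211 CPM at 8 h in DAOY, and 115, 102 and 93.96 CPM at 0 h and 151, 179 and 186 CPM at 8 h in U87 mg. The change was 1.18 (SE 0.16, edgeR adjusted p = 0.0018), with 1.61 in DAOY and 0.76 in U87 mg. CHKA, choline kinase alpha, which opens the synthesis of phosphatidylcholine, had 18.8, 15.4 and 16.2 CPM at 0 h and 44.5, 51.3 and 42.5 CPM at 8 h in DAOY, and 18.9, 18.8 and 13.5 CPM at 0 h and 31.8, 27.2 and 32.8 CPM at 8 h in U87 mg. Its change was 1.18 (SE 0.15, edgeR adjusted p = 0.00134).

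Among secreted proteins, STC2, a stanniocalcin glycoprotein, had 77.8, 34.1 and 117 CPM at 0 h and 216, 248 and 432 CPM at 8 h in DAOY, and 165, 193 and 243 CPM at 0 h and 317, 321 and 692 CPM at 8 h in U87 mg. The spread within groups was wide, and the change was 1.58 (SE 0.31, edgeR adjusted p = 0.00744). CYR61 (CCN1), a matricellular protein and a target of YAP and TAZ, had 57.3, 33.5 and 38.7 CPM at 0 h and 159.8, 238 and 113 CPM at 8 h in DAOY, and 19.6, 25.8 and 21.9 CPM at 0 h and 29.4, 39.7 and 55.4 CPM at 8 h in U87 mg. Its change was 1.47 (SE 0.25, edgeR adjusted p = 0.0038), with 2.00 in DAOY and 0.91 in U87 mg. WNT2B, a Wnt ligand, stood lower, at 3.68 ± 0.202 CPM (mean ± SD, n = 3) at 0 h and 10.5 ± 2.77 CPM at 8 h in DAOY, and at 3.52 ± 0.678 and 7.69 ± 2.96 CPM in U87 mg. It changed by 1.34 (SE 0.22, edgeR adjusted p = 0.00351).

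The other members of this group changed by 1.15 to 2.78. PRRG4, a membrane protein with a Gla domain, rose by 1.44, RASSF1, a Ras association domain tumour suppressor, by 1.26, and SNHG7, a host gene of small nucleolar RNAs, by 1.21. CREBRF, a regulator of CREB3, rose by 1.15 with nearly equal estimates in the lines (1.14 and 1.15), and RSRP1, an arginine and serine rich protein, by 1.52. The largest value, 2.78, belongs to TMED7-TICAM2, a read-through transcript that shares its sequence with TMED7 and TICAM2. DAOY had 0, 1.71 and 6.91 CPM of it at 0 h and 16.9, 31.6 and 44.5 CPM at 8 h, and the division of reads between these genes is uncertain.

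The 15 largest falls, chosen in the same way, ranged from -1.44 to -1.88. HAS2, which makes the hyaluronan of the pericellular matrix, had the largest fall within these limits, with 149, 62.6 and 33.9 CPM at 0 h and 25.2, 23.4 and 20.9 CPM at 8 h in DAOY, and 43.2, 18.95 and 80.9 CPM at 0 h and 16.01, 5.57 and 13.99 CPM at 8 h in U87 mg. The 0 h samples of HAS2 varied widely in each line, and the change was -1.88 (SE 0.38, edgeR adjusted p = 0.0095). ELAC1, a tRNA 3′ processing enzyme, had 10.98, 8.32 and 6.40 CPM at 0 h and 1.41, 1.87 and 2.22 CPM at 8 h in DAOY, and 7.88, 6.88 and 7.38 CPM at 0 h and 2.51, 2.43 and 2.32 CPM at 8 h in U87 mg. The samples of U87 mg varied little within a time, and the change was -1.88 (SE 0.21, edgeR adjusted p = 0.000872). PLPP3, a membrane phosphatase that breaks down lysophosphatidic acid outside the cell, had 140.2, 77.1 and 55.4 CPM at 0 h and 30.04, 19.8 and 21.99 CPM at 8 h in DAOY, and 83.8, 68.7 and 66.2 CPM at 0 h and 37.6, 36.7 and 23.9 CPM at 8 h in U87 mg. It changed by -1.51 (SE 0.23, edgeR adjusted p = 0.00242), and its relative PLPP6, a phosphatase of isoprenoid and sphingoid phosphates, by -1.52 (SE 0.18, edgeR adjusted p = 0.00109).

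PRMT6, an arginine methyltransferase of histone H3, had 60.1, 44.7 and 63.8 CPM at 0 h and 27.3, 21.1 and 18.5 CPM at 8 h in DAOY, and 26.8, 24.99 and 23.3 CPM at 0 h and 7.04, 10.2 and 6.14 CPM at 8 h in U87 mg. The level was higher in DAOY than in U87 mg at both times, and the change was -1.48 (SE 0.16, edgeR adjusted p = 0.000872). THNSL1, a threonine synthase-like gene, had 8.26, 5.99 and 7.62 CPM at 0 h and 1.15, 1.87 and 0.807 CPM at 8 h in DAOY, and 30.3, 20.7 and 19.8 CPM at 0 h and 9.55, 12.6 and 8.76 CPM at 8 h in U87 mg. THNSL1 changed by -1.70 (SE 0.26, edgeR adjusted p = 0.00257). TTC30B, a part of the intraflagellar transport machinery, had 11.5, 6.84 and 7.42 CPM at 0 h and 3.96, 1.65 and 2.62 CPM at 8 h in DAOY, and 11.2, 9.48 and 9.19 CPM at 0 h and 3.16, 4.09 and 3.02 CPM at 8 h in U87 mg. TTC30B changed by -1.55 (SE 0.22, edgeR adjusted p = 0.00196), with -1.60 in DAOY and -1.50 in U87 mg. Its reads may be divided with the near copy TTC30A, which also fell, by -1.29 (edgeR adjusted p = 0.00267).

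The remaining falls were of RNF144B (-1.73), a ubiquitin ligase, MMAA (-1.69), which handles mitochondrial cobalamin, GPCPD1 (-1.51), which splits glycerophosphocholine, NAP1L3 (-1.51), of the nucleosome assembly protein family, C12orf66 (-1.48), a subunit of the KICSTOR complex, the zinc finger genes ZNF772 (-1.47) and ZNF287 (-1.45), and RBM43 (-1.44), an RNA binding protein. All of these 30 genes stayed past the FDR threshold when any 1 of the 12 samples was left out, and CREBRF fell just below 2-fold (a change of 1.00) without DAOY at 8 h replicate 1. The 30 genes were chosen from these same samples for size and lack of overlap, which favours such stability, so it is no independent support. GPCPD1 passed FDR in neither limma fit on TPM and ZNF772 not in that on log2(TPM + 0.1). In the fit on log2(TPM + 1), WNT2B (0.84), CREBRF (0.91), CHKA (0.97), RNF144B (-0.99) and ZNF772 (-0.83) passed FDR but were under 2-fold. The coding sequence of PRMT6, THNSL1, TTC30B, PLPP6, NAP1L3 and ZNF772 lies in 1 exon of the most abundant transcript.

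**Figure D2:**
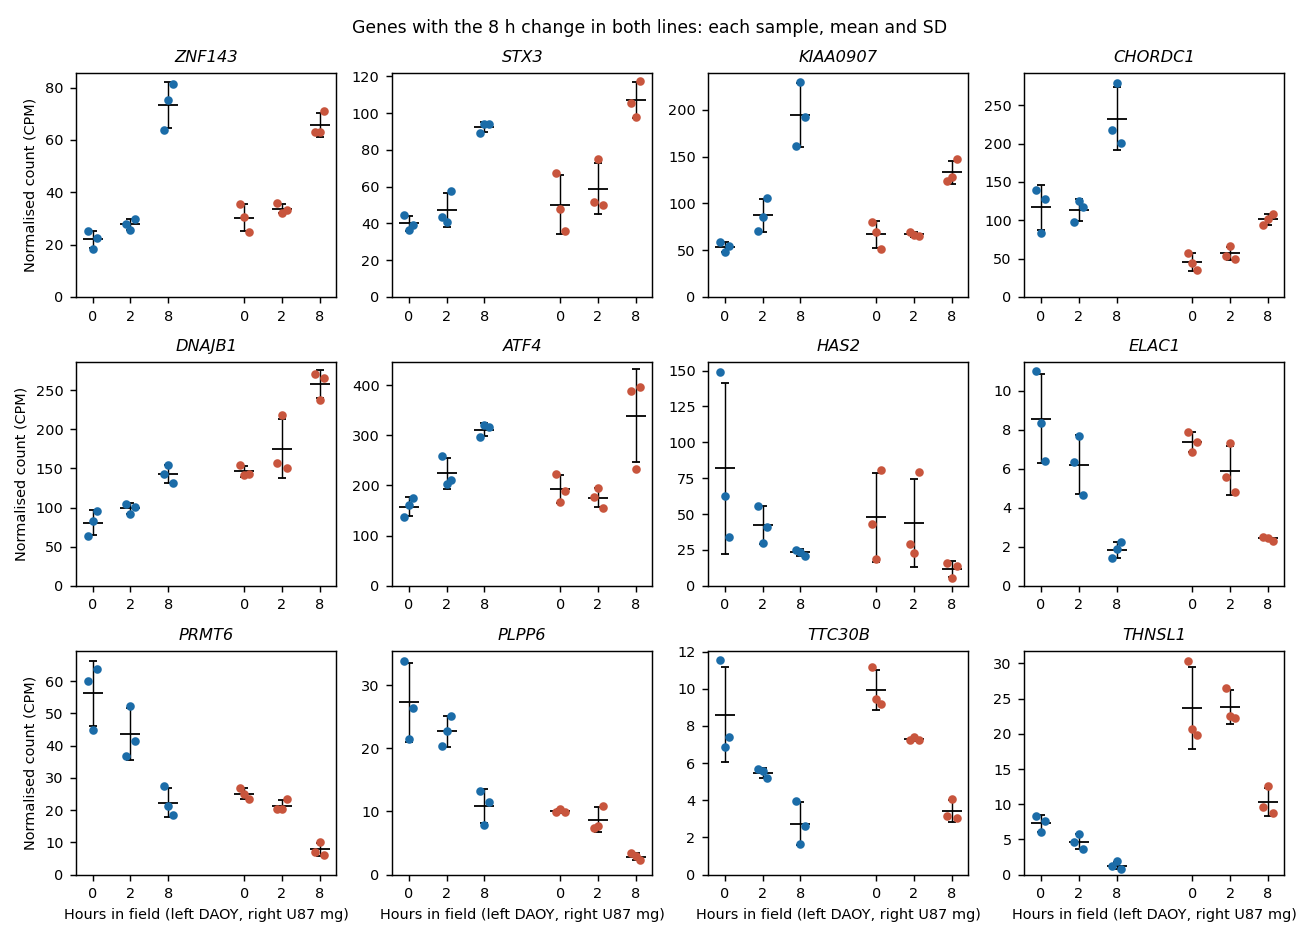
Normalised counts (CPM) of 12 genes at 0 h, 2 h and 8 h in each DAOY sample (blue) and each U87 mg sample (red), with group means and SD as black bars, n = 3. CHORDC1, DNAJB1 and ATF4 were named from gene lists, and their 0 h and 8 h samples do not overlap in either line, while the other 9 genes were chosen for that.

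At 2 h the levels differed from gene to gene. ZNF143 had 27.8, 25.8 and 29.9 CPM in DAOY and 35.8, 32.2 and 33.2 CPM in U87 mg at 2 h, KIAA0907 had 70.8, 85.6 and 106 and 69.6, 66.1 and 65.1 CPM, and MALT1 had 63.7, 57.1 and 86.7 and 115, 122 and 125 CPM. KIAA0907 in DAOY was above all its 0 h samples at 2 h, and MALT1 in DAOY was not. CYR61 had 104, 88.5 and 128 CPM in DAOY and 36.7, 36.5 and 35.7 CPM in U87 mg at 2 h, above all 0 h samples of each line. EGR1 also had 126, 216 and 164 CPM in DAOY and 77.7, 83.7 and 67.3 CPM in U87 mg at 2 h. ELAC1 and PRMT6 still had 5.57, 7.29 and 4.82 and 20.2, 20.4 and 23.4 CPM in U87 mg at 2 h. The 2 h values are descriptions and were not tested.

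The list of detained-intron and splicing speckle genes had the highest median of the 36 lists, and the other lists of RNA processing did not stand out in the same way. The lists were chosen with earlier results of these data known, so this rank and the shares are descriptions and no test. Of the 37 genes of the detained-intron and splicing speckle list, 17 rose (45.9%) and 1 fell (2.70%) by FDR, beside 3.58% and 3.79% of all genes tested. The median log2 fold change was 0.43 (0.52 in DAOY, 0.30 in U87 mg) against -0.01 over all genes tested. Leaving out DAOY at 8 h replicate 1 left 11 that rose. KIAA0907 led the list. LUC7L, a component of the U1 small nuclear ribonucleoprotein, had 18.6, 19.5 and 23.7 CPM at 0 h and 37.1, 42.1 and 41.2 CPM at 8 h in DAOY, and 7.58, 10.7 and 8.02 CPM at 0 h and 15.2, 14.8 and 18.02 CPM at 8 h in U87 mg. It changed by 0.94 (SE 0.13, edgeR adjusted p = 0.00195), and FUBP1, which binds single stranded DNA and RNA and acts in MYC transcription and splicing, by 1.09 (SE 0.18, edgeR adjusted p = 0.00315). The FUBP1 estimates were 1.61 in DAOY and 0.55 in U87 mg, and their difference did not pass the interaction test. PRMT6, an arginine methyltransferase whose coding sequence lies in 1 exon, was the only member that fell. The other risers of the list changed by 0.43 to 0.92 and were CCNL2, CPSF6, DDX17, LUC7L3, MGEA5, NKTR, OGT, PNISR, PNN, RBM25, RBM33, RBM39, SREK1 and SRRM2, named here because they were called.

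The SR proteins, which recruit the spliceosome to exons, did not move together. Of 14 SR genes 7.14% rose and 14.3% fell by FDR, beside 3.58% and 3.79% of all genes tested. SRSF11 changed by 0.69 (SE 0.12, edgeR adjusted p = 0.00392), SRSF8 changed by -0.87 (SE 0.14, edgeR adjusted p = 0.00284) and SRSF5 by -0.44 (SE 0.11, edgeR adjusted p = 0.0261), and the median was 0.03. Of 9 kinases of SR proteins, CLK1 changed by 0.57 (SE 0.13, edgeR adjusted p = 0.0189) and PRPF4B by 0.58 (SE 0.12, edgeR adjusted p = 0.0116), 22.2% of the list. CLK1 had 58.5, 59.7 and 59.2 CPM at 0 h and 74.2, 119 and 111 CPM at 8 h in DAOY, and 73.1, 72.96 and 66.4 CPM at 0 h and 91.5, 75.2 and 99.6 CPM at 8 h in U87 mg. CLK1 lost its call without DAOY at 0 h replicate 2 or either of DAOY at 8 h replicates 1 and 2, and PRPF4B without DAOY at 8 h replicate 1. Among 28 hnRNP genes none rose and HNRNPDL (-0.44) and HNRNPA0 (-0.37) fell (7.14%), with a median of 0.06. Of 33 genes of the core spliceosome, PRPF3 (0.53) and DHX15 (0.50) rose (6.06%) and none fell. Of 27 genes of mRNA export and 3′ end cleavage, NXF1 (0.84), the main export receptor, and PABPN1 (0.42) rose, and CPSF3 (-0.58), the cleavage endonuclease, and GLE1 (-0.39) fell, shares of 7.41% each way. GLE1 lost its call in 10 of the 12 fits with a sample left out, PABPN1 and CPSF3 in 3 each, and PABPN1 was at 0.08 in its lowest alternative.

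Sums over the transcripts of a gene can hide opposite changes of its transcript types. Of 47567 transcripts tested in the same additive model, 76 (0.16%) were higher and 43 (0.0904%) lower by FDR, 119 in all from 109 genes. Only the pooled change was used here, and the same sign in both lines was not required. A CHST15 transcript with a change of 3.79 in DAOY and 0 in U87 mg is among those counted. For 22 of the 119 the gene itself was not called, and only 4 of the 119 had the opposite sign to their gene. At an unadjusted p under 0.05 there were 4441. When counts were instead summed by gene and transcript type, an alternative chosen after seeing the data, 239 (0.936%) of 25533 sums were higher and 294 (1.15%) lower. These sums too were counted by the pooled change alone.

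The coding transcripts of SRSF11 had 129.7, 116 and 117 CPM at 0 h and 230.2, 284 and 278 CPM at 8 h in DAOY, and 105, 75.1 and 81.8 CPM at 0 h and 145, 152 and 176 CPM at 8 h in U87 mg. Their change was 0.97 (SE 0.11, edgeR adjusted p = 0.00362), more than that of the whole gene. The coding transcripts of SRSF5 went the other way, with 127, 139 and 115 CPM at 0 h and 56.8, 44.4 and 42.4 CPM at 8 h in DAOY, and 133, 126 and 134 CPM at 0 h and 71.4, 51.8 and 57.05 CPM at 8 h in U87 mg. The 8 h samples were at or below 71.4 CPM and the 0 h samples at or above 115 CPM, and the change was -1.28 (SE 0.12, edgeR adjusted p = 0.00338). The retained-intron transcripts of SRSF5 changed by 0.34 and did not pass the test (edgeR adjusted p = 0.451).

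SRSF7 and IVNS1ABP, named after their values were seen, were not called as genes (-0.16 and -0.54), while their coding transcripts fell. The coding sum of SRSF7 had 90.3, 98.5 and 101 CPM at 0 h and 35.3, 37.7 and 28.8 CPM at 8 h in DAOY, and 58.4, 66.1 and 64.9 CPM at 0 h and 49.6, 45.6 and 58.4 CPM at 8 h in U87 mg. It changed by -0.92 (SE 0.21, edgeR adjusted p = 0.0417), and in U87 mg 1 of the 8 h samples reached the lowest 0 h sample. The coding sum of IVNS1ABP, which encodes an influenza NS1 binding protein of the kelch family, had 103, 92.1 and 83.1 CPM at 0 h and 13.2, 5.14 and 8.16 CPM at 8 h in DAOY, and 108, 47.2 and 92.1 CPM at 0 h and 28.6, 17.2 and 27.3 CPM at 8 h in U87 mg. IVNS1ABP changed by -2.56 (SE 0.36, edgeR adjusted p = 0.00751), the most of these genes, and its retained-intron sum by 0.08 (edgeR adjusted p = 0.918).

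Of 3807 retained-intron sums 28 (0.735%) were higher and 4 (0.105%) lower, beside 0.936% and 1.15% of all 25533 sums. The share of higher sums was thus below that of all sums. The median was 0.11, but it was 0.29 in DAOY and -0.05 in U87 mg. Of 13394 protein-coding sums 175 (1.31%) were higher and 245 (1.83%) lower. Of 2767 sums of transcripts marked for nonsense-mediated decay 12 (0.434%) were higher and 5 (0.181%) lower. The retained-intron sum of OGT, the enzyme that adds O-linked N-acetylglucosamine to proteins, had 42.6, 45.5 and 28.3 CPM at 0 h and 124, 203 and 149 CPM at 8 h in DAOY, and 51.4, 57.1 and 41.8 CPM at 0 h and 86.4, 78.1 and 68.1 CPM at 8 h in U87 mg. It changed by 1.31 (SE 0.25, edgeR adjusted p = 0.0198), and the coding sum by 0.48 (edgeR adjusted p = 0.183). In ZNF143 the coding sum (1.35) and the retained-intron sum (1.81) both rose. The cyclin CCNL1 had a rise of its decay transcripts (0.84, edgeR adjusted p = 0.0131) while its coding sum changed by -0.24 (edgeR adjusted p = 0.903). The error of dividing reads between transcripts of a gene is not part of these tests.

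**Figure D3:**
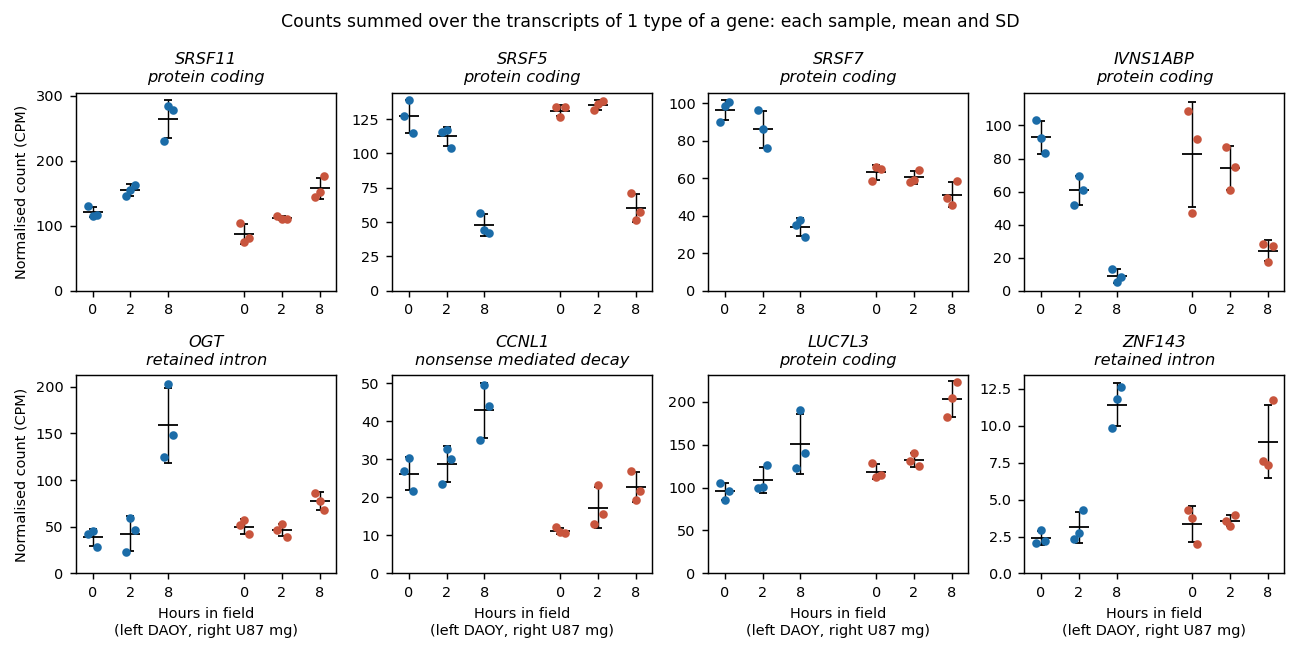
Counts (CPM) summed over the transcripts of 1 type for 8 genes at 0 h, 2 h and 8 h in each DAOY sample (blue, left) and U87 mg sample (red, right), with means and SD, n = 3. Coding sums of SRSF5, SRSF7 and IVNS1ABP are lower at 8 h while the SRSF11 and LUC7L3 coding sums and the OGT, CCNL1 and ZNF143 sums are higher.

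The share of all counts in retained-intron transcripts was 3.13% ± 0.139 at 0 h and 3.48% ± 0.305 at 8 h in DAOY and 2.91% ± 0.0738 and 2.85% ± 0.132 in U87 mg (mean ± SD, n = 3). The mean difference over both lines was 0.139 percentage points (two-sided exact permutation test within lines, p = 0.3, smallest possible p = 0.005). The share in decay transcripts was 3.92% ± 0.341 and 3.67% ± 0.0394 in DAOY and 3.42% ± 0.0704 and 3.38% ± 0.0984 in U87 mg, a difference of -0.145 points (exact permutation p = 0.19). The mitochondrial genome took 4.74% ± 1.58 and 6.81% ± 1.41 in DAOY and 4.51% ± 0.525 and 4.58% ± 1.53 in U87 mg, a difference of 1.07 points (exact permutation p = 0.225). With U87 mg at 8 h replicate 1 left out the mitochondrial difference was 1.51 points (exact permutation p = 0.015), and with DAOY at 0 h replicate 1 left out the decay share difference was -0.227 points (exact permutation p = 0.025). Each is the difference furthest from 0 when each of the 12 samples was left out in turn. These p-values are therefore those of extremes and do not replace the ones over all samples.

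A part of the chaperone genes rose. Of 44 chaperones and co-chaperones 10 rose (22.7%) and 1, DNAJB5, fell (2.27%) by FDR, beside 3.58% and 3.79% of all genes tested, and the median was 0.17 (0.15 in DAOY, 0.23 in U87 mg). Leaving out DAOY at 8 h replicate 1 left 6 that rose, as did each limma fit on TPM. CHORDC1, a partner of HSP90, had 139, 83.96 and 128 CPM at 0 h and 217, 279 and 201 CPM at 8 h in DAOY, and 57.8, 44.8 and 35.1 CPM at 0 h and 93.8, 102 and 108 CPM at 8 h in U87 mg. All 8 h samples were above the 0 h samples of their line, and the change was 1.09 (SE 0.15, edgeR adjusted p = 0.00164). DNAJB1, an inducible HSP40 that hands clients to HSP70, had 63.2, 83.2 and 95.1 CPM at 0 h and 143, 154 and 132 CPM at 8 h in DAOY, and 155, 141 and 143 CPM at 0 h and 270.3, 238 and 265 CPM at 8 h in U87 mg. The change was 0.85 (SE 0.11, edgeR adjusted p = 0.00134), with 0.84 in DAOY and 0.85 in U87 mg. DNAJB4 changed by 1.02 (SE 0.14, edgeR adjusted p = 0.00182) and DNAJB6, which holds back protein aggregation, by 0.69 (SE 0.11, edgeR adjusted p = 0.00257). The other risers, named because they were called, were HSPH1 (0.81), DNAJA1 (0.66), BAG3 (0.61), BAG1 (0.50), STIP1 (0.40) and AHSA1 (0.37).

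The promoter windows of 3 of the 10 risers hold the letters GAANNTTC of a heat shock element, in RefSeq's GRCh38.p14 windows from 250 bases before to 50 bases after the start. They are shown because heat shock factors bind this element at chaperone genes, and capitals mark each match on either strand. DNAJA1 lies at chr9:33025023-33025322 on the plus strand with 2 matches, DNAJB6 at chr7:157336754-157337053 on the plus strand with 1, and CHORDC1 at chr11:90223000-90223299 on the minus strand with 3.
DNAJA1: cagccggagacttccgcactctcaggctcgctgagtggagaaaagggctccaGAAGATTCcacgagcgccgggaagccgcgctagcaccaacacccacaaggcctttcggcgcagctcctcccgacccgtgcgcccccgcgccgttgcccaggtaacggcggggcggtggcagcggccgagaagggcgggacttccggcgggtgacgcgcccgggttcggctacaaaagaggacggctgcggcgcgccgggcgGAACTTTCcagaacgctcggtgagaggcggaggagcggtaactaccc
DNAJB6: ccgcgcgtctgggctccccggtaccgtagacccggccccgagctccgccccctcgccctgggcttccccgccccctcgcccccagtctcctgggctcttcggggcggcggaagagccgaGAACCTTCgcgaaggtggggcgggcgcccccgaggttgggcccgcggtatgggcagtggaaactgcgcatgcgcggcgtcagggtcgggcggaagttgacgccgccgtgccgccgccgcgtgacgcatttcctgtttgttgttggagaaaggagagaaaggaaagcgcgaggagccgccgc
CHORDC1: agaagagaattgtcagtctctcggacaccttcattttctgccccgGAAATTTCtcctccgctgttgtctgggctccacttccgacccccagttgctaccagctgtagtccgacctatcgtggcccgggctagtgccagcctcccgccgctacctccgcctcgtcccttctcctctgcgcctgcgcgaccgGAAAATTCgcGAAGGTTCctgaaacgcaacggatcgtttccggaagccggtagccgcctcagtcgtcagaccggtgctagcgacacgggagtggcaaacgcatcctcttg
Of the 38 tested chaperone genes with a window 11 (28.9%) hold the letters, and of all 27305 promoter windows 1875 (6.87%) do. The risers, at 3 of 10, therefore held them about as often as the whole list. Windows were found for 51.4% of the called higher and 63.3% of the called lower genes, too few for a comparison of these sets.

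Fewer genes of the other stress lists were called. Of 39 genes of the unfolded protein and integrated stress response 3 rose (7.69%), beside 3.58% of all genes tested. ATF4, the transcription factor of that response, had 137, 161 and 176 CPM at 0 h and 297, 321 and 317 CPM at 8 h in DAOY, and 223, 167 and 189 CPM at 0 h and 389, 233 and 396 CPM at 8 h in U87 mg. The change was 0.92 (SE 0.13, edgeR adjusted p = 0.00209), and 1 of the 8 h U87 mg samples, at 233 CPM, lay close to the highest 0 h sample. PPP1R15A, which removes the phosphate from the initiation factor eIF2, changed by 1.06 (SE 0.18, edgeR adjusted p = 0.00424), and CEBPB, a basic leucine zipper factor, by 0.51 (SE 0.13, edgeR adjusted p = 0.0273). The median of the list was 0.08. Of 27 targets of the antioxidant factor NRF2, MAFG (0.85) and TXNRD1 (0.97) rose (7.41%). Of 39 genes of hypoxia and glycolysis STC2 and KDM3A (0.79) rose (5.13%). The hypoxia and glycolysis list had a median of 0.74 in DAOY and -0.07 in U87 mg. Relative to the 0 h mean, the DAOY samples at 8 h lay at 0.07, -0.18 and 1.44, so replicate 2 carried the DAOY value, and without it the median over both lines went from 0.32 to -0.07.

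Of 29 immediate early genes 6 rose (20.7%) and 1 fell (3.45%) by FDR, beside 3.58% and 3.79% of all genes tested, with a median of 0.30. EGR1, a zinc finger factor of serum response, had 101, 102 and 95.4 CPM at 0 h and 121, 280.1 and 258 CPM at 8 h in DAOY, and 26.03, 23.5 and 28.9 CPM at 0 h and 93.3, 27.999 and 121 CPM at 8 h in U87 mg. Its change was 1.40 (SE 0.28, edgeR adjusted p = 0.0103), but 1 U87 mg sample at 8 h, its replicate 1, lay within the 0 h range. IER5 changed by 0.74 (SE 0.12, edgeR adjusted p = 0.00335) and KLF6 by 0.51 (SE 0.09, edgeR adjusted p = 0.00516), both separated in both lines. ZFP36L1, which marks AU-rich transcripts for decay, changed by -0.53 (SE 0.11, edgeR adjusted p = 0.0111). FOS (1.80), NR4A2 (1.03) and CSRNP1 (0.98) were the other risers, named because they were called. Without DAOY at 8 h replicate 1 the list had 3 risers, as in each limma fit on TPM. Of 20 genes of ERK feedback 0 were called by edgeR, and their median was 0.23. An unadjusted p under 0.05 was found for 8 of them, beside 3790 of all 16214 genes tested. DESeq2 called 2 of them higher, beside 795 of all 16214.

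Of 23 YAP and TAZ targets 6 rose (26.1%) and none fell, beside 3.58% and 3.79% of all genes tested. The median was 0.29 (0.46 in DAOY, 0.12 in U87 mg). Beside CYR61 these were LATS2, a kinase that restrains YAP, at 0.93 (SE 0.13, edgeR adjusted p = 0.00203), AJUBA, a LIM protein of the same pathway, at 1.17 (SE 0.20, edgeR adjusted p = 0.00444), ASAP1 at 0.48 (SE 0.11, edgeR adjusted p = 0.0179), and GADD45B (1.04) and AMOTL2 (0.62). LATS2 had 33.96, 28.7 and 27.8 CPM at 0 h and 57.97, 79.99 and 54.8 CPM at 8 h in DAOY, and 23.3, 20.3 and 19.7 CPM at 0 h and 31.7, 31.7 and 40.8 CPM at 8 h in U87 mg. Its groups did not overlap in either line. Without DAOY at 8 h replicate 1 the list had 3 risers.

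Among 20 clock genes 4 rose (20%) and 1 fell (5%), beside 3.58% and 3.79% of all genes tested. ARNTL (BMAL1), the activator of the clock, had 31.02, 30.9 and 29.7 CPM at 0 h and 43.7, 58.8 and 64.4 CPM at 8 h in DAOY, and 34.01, 20.96 and 31.4 CPM at 0 h and 52.6, 37.5 and 56.2 CPM at 8 h in U87 mg. It changed by 0.84 (SE 0.15, edgeR adjusted p = 0.00459) and CRY1, a repressor of it, by 0.82 (SE 0.14, edgeR adjusted p = 0.00333). BHLHE41 (DEC2), another repressor, changed by -1.05 (SE 0.17, edgeR adjusted p = 0.00302), with 102 ± 17.7 CPM (mean ± SD, n = 3) at 0 h and 52.8 ± 6.70 CPM at 8 h in U87 mg. CSNK1D (0.57) and PER3 (0.54), named because they were called, were the other risers. When 1 sample was left out CSNK1D kept its call only without U87 mg at 8 h replicate 1 and PER3 only without U87 mg at 8 h replicate 0, and the list had 2 risers, ARNTL and CRY1, without any 1 of the remaining 10 samples and in each limma fit.

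**Figure D4:**
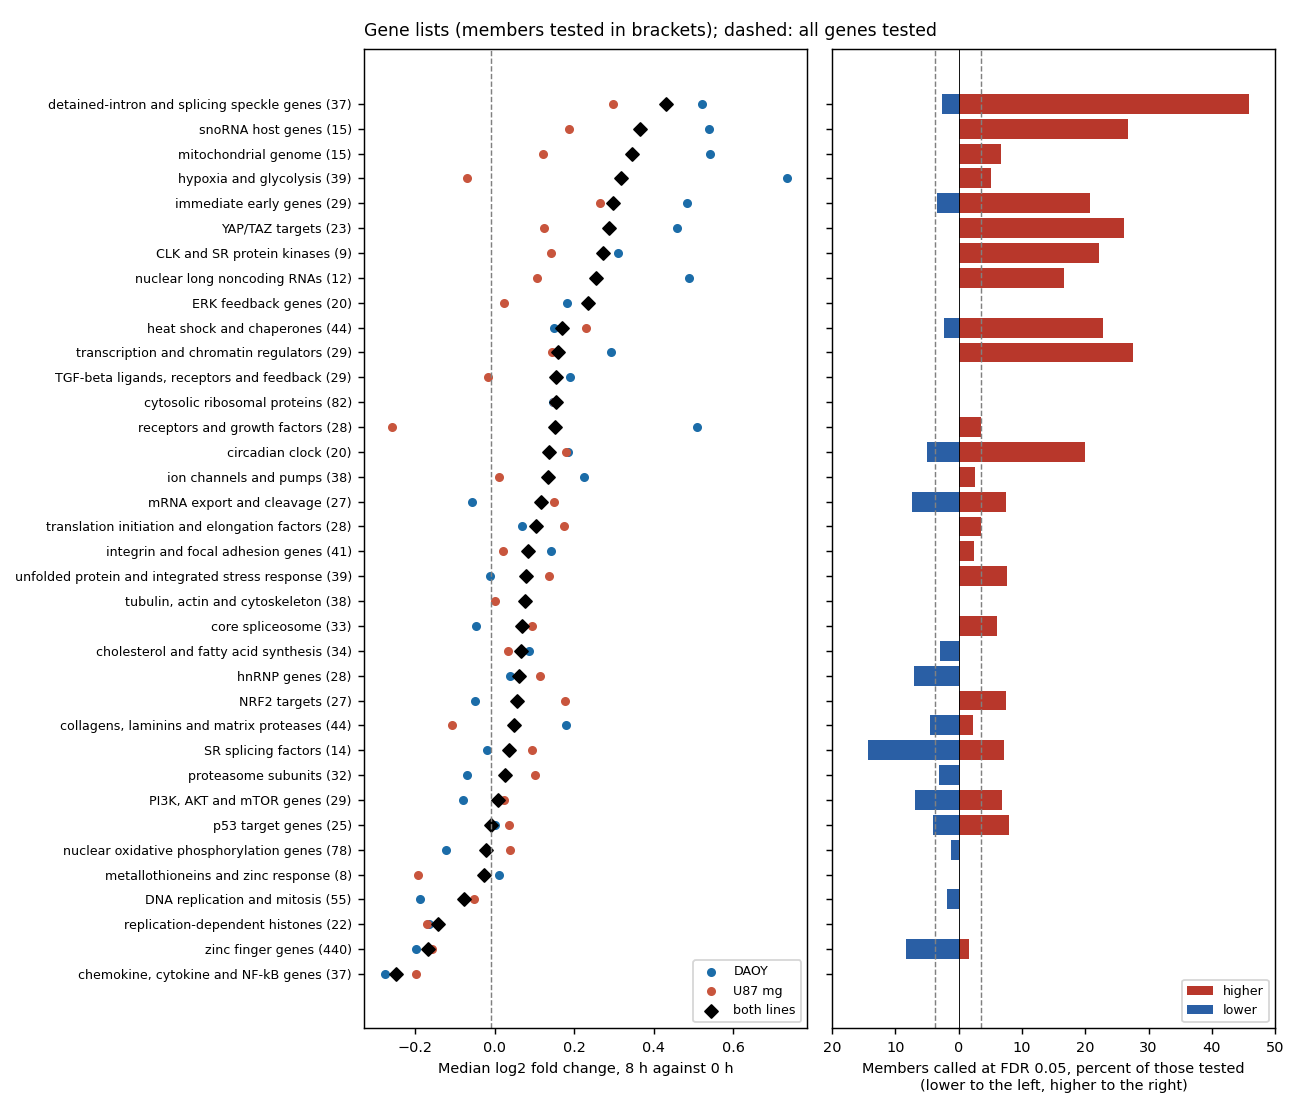
Median log2 fold change at 8 h against 0 h of the tested members of 36 gene lists in DAOY, in U87 mg and in the additive fit (left), and the percent of members called higher or lower by FDR (right), with all genes tested as dashed lines. The lists were chosen with earlier results of these data known. The detained-intron and splicing speckle list has the highest median, 0.43, and the highest percent of members called higher, and the chemokine list has the lowest median, -0.25, with no member called; without DAOY at 0 h replicate 0 the chemokine median is 0.02.

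Of 29 transcription and chromatin regulators 8 rose (27.6%) and none fell, beside 3.58% and 3.79% of all genes tested, with a median of 0.16. EP300 and CREBBP, paired histone acetyltransferases, changed by 0.60 (SE 0.11, edgeR adjusted p = 0.00503) and 0.64 (SE 0.11, edgeR adjusted p = 0.00507). EP300 had 144, 129.5 and 134 CPM at 0 h and 165, 226 and 205 CPM at 8 h in DAOY, and 112, 109 and 117 CPM at 0 h and 159, 149 and 207 CPM at 8 h in U87 mg. The bromodomain protein BRD2 (0.38), the kinase CDK13 (0.45), the methyltransferases KMT2A (0.45) and KMT2D (0.63) and the demethylase KDM6B (0.66) were also among the risers. The remaining 21 members, among them BRD3, HEXIM1, CDK9, CDK12, POLR2A and the NELF subunits, had changes between -0.47 and 0.45 that did not pass the test. Leaving out 1 sample gave 2 to 8 risers in this list. The limma fits gave 1 and 2. Leaving out gave 2 without DAOY at 8 h replicate 1, 3 without DAOY at 8 h replicate 2 or U87 mg at 8 h replicate 2, and 4 or 5 without DAOY at 0 h replicates 1 or 2 or U87 mg at 0 h replicates 1 or 2.

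Of 29 PI3K, AKT and mTOR genes 2 rose and 2 fell, 6.90% each way beside 3.58% and 3.79% of all genes tested, with a median of 0.01. TSC1, which with TSC2 holds mTOR complex 1 in check, had 60.3, 68.3 and 60.5 CPM at 0 h and 96.6, 115 and 101 CPM at 8 h in DAOY, and 48.9, 50.7 and 46.01 CPM at 0 h and 79.99, 85.04 and 98.5 CPM at 8 h in U87 mg. TSC1 changed by 0.81 (SE 0.10, edgeR adjusted p = 0.00109) and RICTOR, of mTOR complex 2, by 0.65 (SE 0.15, edgeR adjusted p = 0.0183). PIK3R1, the regulatory subunit p85 alpha, changed by -0.55 (SE 0.11, edgeR adjusted p = 0.00809), and FOXO1 by -1.05 (SE 0.23, edgeR adjusted p = 0.0135). FOXO1 and RICTOR lost their calls in both limma fits, where FOXO1 reached -0.36, and RICTOR also lost it without DAOY at 8 h replicates 1 or 2 or U87 mg at 8 h replicate 2. PIK3R1 had 111, 105 and 86.1 CPM at 0 h and 60.7, 72.2 and 56.5 CPM at 8 h in DAOY, and 54.7, 48.9 and 46.01 CPM at 0 h and 34.6, 38.9 and 34.6 CPM at 8 h in U87 mg. Its 8 h samples lay below the 0 h samples in both lines.

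Genes of the matrix and of growth moved one by one. Of 44 collagens, laminins and matrix proteases, ADAMTS5 (-1.02) and ADAMTS1 (-0.92), which cut aggrecan and versican, fell (4.55%) and LAMB1 (0.43) rose (2.27%), shares near those of all genes tested. LAMB1 lost its call in 10 of the 12 fits with a sample left out, and ADAMTS1 without DAOY at 8 h replicates 1 or 2. CCNE2, cyclin E2, was the only call (1.82%) among 55 genes of DNA replication and mitosis, at -1.35 (SE 0.24, edgeR adjusted p = 0.00503). Of 25 p53 targets AEN (0.50) and TP53INP1 (0.44) rose (8%) and XPC (-0.74), which recognises DNA damage, fell (4%). Over all genes tested 3.58% rose and 3.79% fell. Of 15 snoRNA host genes SNHG7, SNHG3 (0.70), SNHG1 (0.66) and SNHG12 (0.92) rose (26.7%) and none fell. The count of snoRNA host genes that rose moved with single samples. It was 1 without DAOY at 0 h replicates 1 or 2 or DAOY at 8 h replicate 1, 2 without DAOY at 8 h replicate 2 or replicate 2 of U87 mg at 0 h or 8 h, and 7 without U87 mg at 0 h replicate 0, and the limma fits gave 1 and 2. The calls of the other lists were few. VEGFC (0.67), CRK (0.39), ATP1B3 (0.51), EIF3A (0.44), MT-ND3 (0.73), MIR22HG (0.97) and KCNQ1OT1 (0.63) rose and ELOVL6 (-0.40), PSMD5 (-0.54) and NDUFV3 (-0.61) fell. Of these PSMD5 alone kept its call whichever sample was left out. The call was lost in 10 of the 12 such fits for VEGFC, 9 for MT-ND3, MIR22HG and ELOVL6, 7 for KCNQ1OT1, 6 for CRK and EIF3A, 4 for ATP1B3 and 3 for NDUFV3.

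Other lists had 0 calls by edgeR. Over all 16214 genes tested 3790 had an unadjusted p under 0.05, and DESeq2 called 795 higher and 959 lower by FDR. The counts that follow are to be read beside these. Of 37 chemokine, cytokine and nuclear factor kappa B genes (median -0.25) 10 had an unadjusted p under 0.05, and DESeq2 called 1 higher and 3 lower. The median was 0.02 without DAOY at 0 h replicate 0, where the list lay at 0.69 against -0.54 and -0.47 in the other 0 h samples of DAOY, and up to 9 members were lower under an alternative, the fit with no filter. Of 29 genes of TGF-beta signalling (median 0.15) 8 had such a p and DESeq2 called 1 higher, and of 38 cytoskeletal genes (median 0.08) 4 did and DESeq2 called 1 higher. Of 22 replication-dependent histones (median -0.14) 4 had such a p and DESeq2 called 2 lower. Of 82 cytosolic ribosomal proteins (median 0.15) 1 had such a p, of 8 metallothionein and zinc response genes (median -0.03) 0 had, and DESeq2 called 0 in both. The ribosomal proteins were positive in 78 of 82 cases, within a range of -0.15 to 0.35. Of 41 integrin and focal adhesion genes 1 (2.44%), CRK, was called.

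Zinc finger genes fell more often than they rose. Of 440 tested genes with a ZNF number 37 (8.41%) fell and 7 (1.59%) rose, with a median of -0.17 (-0.20 in DAOY, -0.16 in U87 mg), beside 3.79% and 3.58% over all genes tested. Beside ZNF287 and ZNF772, ZNF181 had 20.3, 16.6 and 19.002 CPM at 0 h and 9.34, 8.36 and 9.68 CPM at 8 h in DAOY, and 9.47, 7.55 and 7.18 CPM at 0 h and 4.38, 4.61 and 4.03 CPM at 8 h in U87 mg. It changed by -0.94 (SE 0.14, edgeR adjusted p = 0.00249). ZNF143 and ZNF207 (0.67), a mitotic spindle protein, were among the 7 that rose. Relative to the 0 h mean of a line, the median ZNF gene of the 8 h samples lay at -0.25, -0.21 and -0.20 in DAOY and -0.14, -0.12 and -0.16 in U87 mg. At 2 h it lay at -0.32, -0.14 and -0.17 in DAOY and -0.04, -0.03 and -0.05 in U87 mg. The count of falling genes was 20 to 22 without DAOY at 0 h replicate 1, DAOY at 8 h replicates 1 or 2, or U87 mg at 8 h replicate 2. Over all genes tested 393, 281, 291 and 349 fell in those fits, in that order. The ZNF count was 70 with the GC and length trend removed, 59 with DESeq2 or all 18 samples, and 20 with limma on log2(TPM + 0.1). The genes that fell over all tested also changed, from 614 of 16214 in the main fit. They were 1179 of 16081 with the trend removed, 959 of 16214 with DESeq2, 1046 of 16482 with all 18 samples and 448 of 16214 with that limma fit.

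Genes with 1 coding exon fell more often than others, a pattern noticed after seeing the data and given without a test. The number of coding exons was taken from the most abundant transcript of each protein-coding gene in GENCODE 29. Of 843 genes with 1 coding exon 90 (10.7%) fell and 27 (3.20%) rose, with a median of -0.15. The percent that fell was 4.71 with 2 coding exons, 4.28 with 3 to 5, 3.95 with 6 to 10, 3.05 with 11 to 20 and 1.26 with over 20, where 5.77% rose. Of the genes called lower at both thresholds 41 of 143 coding genes (28.7%) had 1 coding exon, against 6.45% of those called higher and 6.72% of all tested. Without the ZNF names 84 of 793 (10.6%) fell.

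Genes with 1 coding exon fell more often than those with several at each of 4 levels of expression. Up to 5 CPM 9.003% and 2.42% fell. Between 5 and 20 CPM 13.5% and 5.95% fell, and between 20 and 60 CPM 14.02% and 4.32% did. Above 60 CPM the values were 3.67%, which is 4 genes, and 1.54%. With the GC content and length trend removed, a fit in which 1179 of 16081 genes fell, 14.8% of genes with 1 coding exon and 5.70% of those with over 20 fell, a smaller ratio than above. The median of the 843 genes in the 8 h samples lay at -0.08, -0.21 and -0.14 on the log2 scale relative to the 0 h mean in DAOY and at -0.08, -0.16 and -0.23 in U87 mg, where the median of all genes lay between -0.06 and 0.00. With 1 sample left out between 42 and 81 of the 843 fell, the fewest without DAOY at 8 h replicate 1, and 45 to 52 fell without U87 mg at 8 h replicate 2, DAOY at 8 h replicate 2 or DAOY at 0 h replicate 1. With limma on log2(TPM + 0.1) 54 fell. Over all genes tested 448 fell in that limma fit and 281 without DAOY at 8 h replicate 1, against 614 in the main fit.

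**Figure D5:**
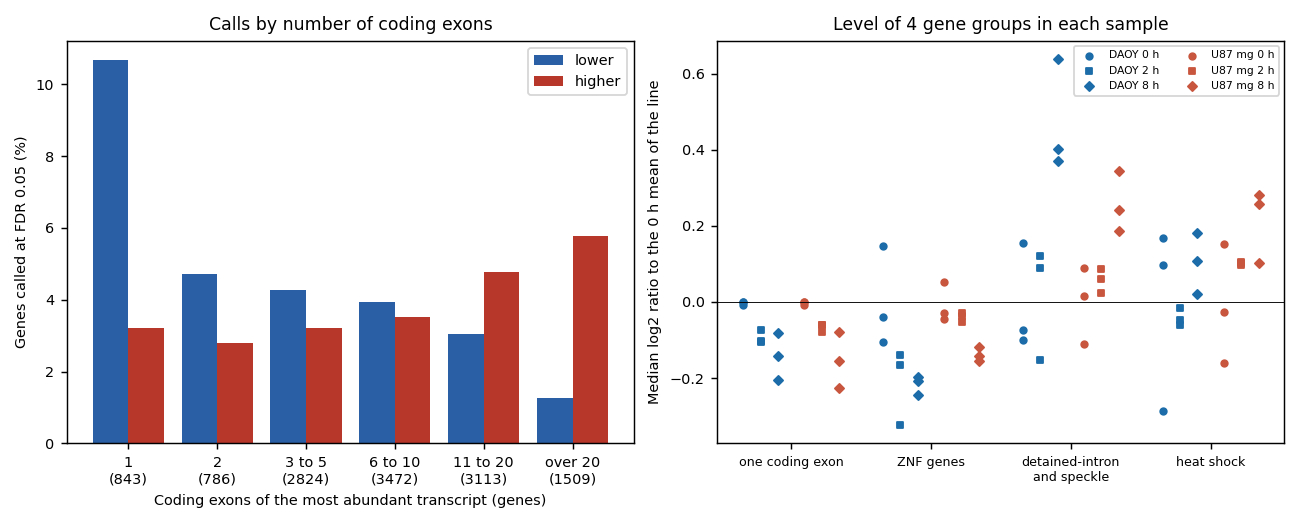
Left, percent of genes called lower (blue) or higher (red) by FDR for protein-coding genes grouped by the number of coding exons, with the number of genes in brackets. Right, the median log2 ratio of 4 gene groups to the 0 h mean of the line in each sample: the single coding exon and ZNF groups lie below 0 in every 8 h sample, and the detained-intron and heat shock groups above 0. In the heat shock group 0 h replicate 0, at 0.17 in DAOY and 0.15 in U87 mg, lies within the 8 h range of its line.

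BDNF, a neurotrophin, was the gene whose change differed between the lines. It had 5.43, 5.29 and 3.76 CPM at 0 h and 11.2, 13.8 and 14.4 CPM at 8 h in DAOY, and 41.7, 39.9 and 44.4 CPM at 0 h and 29.2, 28.5 and 26.3 CPM at 8 h in U87 mg. The estimates were 1.46 in DAOY and -0.56 in U87 mg, with no overlap between 0 h and 8 h in either line, and the interaction was -2.01 (edgeR adjusted p = 0.0406). When 1 sample was left out the call was kept only without DAOY at 8 h replicate 0.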

How the data were processed

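RNA of spheroidal aggregates of both lines was sequenced as single-end 100 base reads from a stranded, poly(A)-selected library. The authors trimmed the reads with the FastQC Toolkit 2.0.0 and quantified GENCODE 24 transcripts with kallisto 0.43.0, and compared groups with sleuth 0.28.1. The strand setting of kallisto is not given in the sources used here, so overlapping antisense genes cannot be told apart. The deposited table holds, for each of 145326 transcripts and each sample, estimated counts and TPM as the authors computed them. Its columns of fold changes and p- and q-values for the authors' own comparisons were not used. Replicates were prepared separately, and the study kept the 3 with the best RNA quality (DAOY at 8 h had only 3), so p-values measure the spread between these chosen samples.

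Estimated counts were summed over the transcripts of a gene name (32490 names, 24321 with an HGNC symbol) and rounded. Low genes were removed with filterByExpr, and 16214 were fitted with edgeR 4.0.16 (R 4.3.3, TMM scaling, quasi-likelihood test) on cell line plus time over the 12 samples at 0 h and 8 h. A gene was called at FDR below 0.05 (Benjamini-Hochberg), a fold of at least 2 where stated, and the same sign in both lines. The interaction of line and time was tested in a second fit. Genes named as the largest changes were the 15 in each direction with an HGNC symbol and a mean CPM of at least 5 that were called and whose 0 h and 8 h samples did not overlap in either line, and up to 4 called members were named per list. The members and gene lists were chosen with earlier results of these data known. Truncated clone names merge genes on several chromosomes for 49 names. In simulated counts for this comparison over 15946 genes, 91 of 100 genes changed 4-fold and 55 of 100 changed 2-fold were recovered, with 7 unchanged genes called. Shares of counts were compared with two-sided exact permutation tests within lines. Alternatives were DESeq2 1.42.0, RLE size factors, limma 3.58.1 on log2(TPM + 1) and log2(TPM + 0.1), other filters, a replicate block, all 18 samples, thinning to 1 total, and leaving out each sample. The values of some genes that were called are not reported here.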

Additional observations from a re-analysis of the deposited data

Results flagged for a closer look

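BDNF was picked out because its 8 h change differed between the lines in the test of the difference itself. The log2 change in U87 mg minus that in DAOY was -2.01 (quasi-likelihood test of edgeR, Benjamini-Hochberg adjusted p = 0.0406). All 3 DAOY samples at 8 h lay above, and all 3 U87 mg samples at 8 h lay below, the 0 h samples of their line.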

How the results depend on the processing

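Of the 107 higher and 207 lower genes, DESeq2 kept 104 and 200. The counts of higher genes that moved were 580 by FDR alone, 179 with the GC and length trend removed (chosen after seeing the data), 50 with at least 10 counts in every sample, 203 with no filter, 54 with limma on log2(TPM + 0.1), 32 with limma on log2(TPM + 1) and 1 when each line had to pass alone (54 with DESeq2). Those of lower genes were 614, 103 with at least 10 counts in every sample, 80 with limma on log2(TPM + 1) and 2 with each line alone (77 with DESeq2). Leaving out 1 sample gave 39 to 126 higher and 129 to 223 lower genes. The cause was not tested. The 1 gene that differed between the lines became 27 with DESeq2, 4 with the trend removed, 2 with all 18 samples, 165 with no filter, 0 with either limma fit or after thinning, and 0 to 3 with 1 sample left out.

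Same-numbered samples correlated at -0.06, 0.04 and 0.28 in DAOY and -0.15, 0.16 and -0.04 in U87 mg, so the numbers were not taken as pairs. With the replicate block there were 87 higher and 156 lower genes, 79 and 148 of them shared, and 0 genes that differed between the lines. Under the block 23 ZNF genes and 50 genes with 1 coding exon fell, and 4 transcription and chromatin regulators, 2 clock genes and 1 snoRNA host gene rose. By FDR alone 351 of all 16214 genes rose and 342 fell under the block, against 580 and 614 without it, so calls became fewer throughout.

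The retained-intron share of counts reversed to -0.0591 points as a share of TPM (exact permutation p = 0.81), and lay between 0.0562 and 0.206 with 1 sample left out. The mitochondrial share lay between 0.619 and 1.51 and the decay share between -0.227 and -0.0564. Of 1200 leave-one-out values of 100 named called genes 199 lost the FDR call, and none reversed. The filter on low counts removed 16276 names, and low genes that passed it carry the most counting error.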
